A study of Homo sapiens with 18 samples.

Results

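PTGS2, ENPP2 and GPR34 are 3 genes of lipid signaling, followed here in U937, a human line of monocyte-like cells from a histiocytic lymphoma, under drugs that act on DNA methylation and histone acetylation. They were taken by symbol: 3 of the 16098 probe sets with a gene symbol carry one of these names, 1 for each gene, and the array holds 48226 probe sets in all. The genes were picked because earlier results on these arrays showed them high after treatment, from the same log2 levels described here, so their own levels and differences are given as a description without a test. Tests are given for other lipid mediator genes, which were not used in that choice. Their lists were written with earlier results of these data known.

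There were 18 arrays in 6 groups of 3: cells given decitabine (5-aza-2'-deoxycytidine) with panobinostat, decitabine with valproic acid, decitabine alone, panobinostat alone, valproic acid alone, and a group labelled as control. Decitabine, a cytosine analogue that traps DNA methyltransferases, came as 3 pulses, each 24 h long. Panobinostat and valproic acid, which both block histone deacetylases, were added for 24 h, alongside the final pulse where combined. Doses are labelled 50 (decitabine), 8 (panobinostat) and 1 (valproic acid) with no unit, and the inhibitor doses are not taken as matched. All groups share the cell line and medium, and nothing in the labels says whether a group's 3 arrays stem from independent cultures, so p-values below measure the spread between these arrays, which may be technical.

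PTGS2 encodes cyclooxygenase 2, the inducible enzyme that turns arachidonic acid into the precursor of prostaglandins and thromboxane, and in monocytes and macrophages it is known as an early gene of inflammation. ENPP2 encodes autotaxin, a secreted lysophospholipase D that makes lysophosphatidic acid (LPA), which acts on the receptors LPAR1 to LPAR6. GPR34 encodes a G protein-coupled receptor for lysophosphatidylserine, known from microglia, macrophages and mast cells. The 3 proteins thus belong to different branches of lipid signaling: an intracellular enzyme, a secreted enzyme and a receptor.

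The promoter of PTGS2 is shown because PTGS2 is a textbook inducible gene and both kinds of drug act on DNA or chromatin. It covers the 250 bases before the RefSeq start site, chr1:186680424-186680673 on the minus strand (GRCh38.p14). Capitals mark, in order, a stretch matching a C/EBP site (TTACGCAAT), a cyclic AMP response element (TTCGTCA) and a TATA box (TATAAAA), searched on both strands with no overlap among them.
PTGS2: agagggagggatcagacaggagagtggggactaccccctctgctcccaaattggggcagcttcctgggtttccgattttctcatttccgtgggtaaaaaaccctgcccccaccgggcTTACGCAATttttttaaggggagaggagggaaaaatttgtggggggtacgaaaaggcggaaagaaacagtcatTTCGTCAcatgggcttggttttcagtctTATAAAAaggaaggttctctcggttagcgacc
Position -1 is the last base before the start site, and the matches begin at -133, -60 and -32. Among 35116 RefSeq promoter windows of this length, the same letters occur on either strand in 0.037%, 0.814% and 4.18%. The window holds 9 CpG dinucleotides, the sites that DNA methyltransferases act on, against a median of 11 over all windows. Methylation was not measured in these samples, and a match is a description of letters only.

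The values are log2 signals after RMA, a standard array normalization, and the lowest and highest in the table are 2.29 and 14.57. Array medians lay between 3.81 and 3.87, and the number of arrays limits the precision. Signals close to these medians carry little measurable RNA, so levels near 4 are read here as low without a claim of absence. Arrays of one group correlated across genes at 0.985 to 0.992. Replicate 1 of decitabine plus valproic acid stood apart from its group, at 12.04 on the first principal component against 23.9 and 30.6 for the other arrays of that group. Values of PTGS2, ENPP2 and GPR34 with that combination are also given without this array. The list genes called against control were 27 with it and 30 without it, and PTGR3 was the named gene whose call was lost (-0.63, adjusted p 0.0261, and 0.062 without it). Of 12 monocytic markers, 7 were measured, and they averaged 7.42 to 8.17 in the 5 treated groups and 7.38 in control. They did not move together. CSF1R averaged 5.80 to 6.75 in treated groups and 4.34 in control, and LYZ 8.11 to 9.57 in treated groups and 7.33 in control. With decitabine plus panobinostat MPO averaged 11.35 against 12.28 in control, SPI1 6.12 against 6.97, CD68 9.14 against 7.53 and CD4 9.63 against 9.74. CD14 had a mean of 3.36 over all arrays. The 3 measured T cell markers of 6 (CD2, CD5 and CD8A) averaged 5.35 with decitabine plus valproic acid, 5.13 with decitabine plus panobinostat, 4.23 to 4.53 with the single agents and 4.24 in control. CD8A by itself averaged 4.62 with decitabine plus panobinostat and 4.59 in control. Mast cell markers (4 of 5 measured) averaged 5.28 with decitabine, 3.85 to 4.97 with the other treatments and 4.19 in control. The part of such shifts in the results below was not tested, and in RNA from a whole culture, fewer cells with a gene on and less RNA per cell cannot be told apart.

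PTGS2, measured by probe set 16697370, was low in control and higher on all 15 treated arrays. The combination with panobinostat gave 8.20, 7.93 and 7.95, and the combination with valproic acid 6.30, 7.21 and 6.60. Panobinostat alone gave 6.10, 6.33 and 6.30, valproic acid 5.84, 5.53 and 5.41, and decitabine 6.40, 5.22 and 5.02. The control arrays stood at 4.25, 4.37 and 4.26, the tightest group of this gene. Every treated array was thus above every control array, and the 3 arrays of decitabine plus panobinostat were above all others.

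Relative to control, PTGS2 was 13.3-fold higher with decitabine plus panobinostat, at a mean of 8.03 (SD 0.15, n = 3) against 4.29 (SD 0.06, n = 3). It was 5.32-fold higher with decitabine plus valproic acid, 3.86-fold with panobinostat, 2.47-fold with valproic acid and 2.38-fold with decitabine. On the log2 scale these differences were 3.73, 2.41, 1.95, 1.30 and 1.25, each with a standard error of 0.28 from a limma fit to all groups. That fit draws the spread of each gene toward that of all genes. For PTGS2, ENPP2 and GPR34 this made the standard errors smaller than their own pooled SDs of 0.38, 0.58 and 0.34 would give. The decitabine value leans on 1 array: without decitabine replicate 1, at 6.40, the difference was 0.83. In the order of levels, decitabine plus valproic acid overlapped panobinostat, and decitabine overlapped valproic acid and panobinostat. Decitabine plus valproic acid was 1.16 above decitabine alone (SE 0.28), and their arrays overlapped only through decitabine replicate 1. Without replicate 1 of decitabine plus valproic acid, the array that stood apart, its difference from control was 2.62. Panobinostat and valproic acid did not overlap as single agents, with a gap of 0.25 between their nearest arrays at unmatched doses.

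ENPP2, on probe set 17080516, showed another order: each inhibitor alone went with a higher level, decitabine alone did not separate from control, and decitabine with panobinostat gave the highest readings. Decitabine plus panobinostat gave 7.92, 7.65 and 7.85, and decitabine plus valproic acid gave 5.28, 6.69 and 7.35. Panobinostat stood at 5.62, 6.24 and 5.87, valproic acid at 6.80, 5.22 and 5.64, and decitabine at 4.22, 3.89 and 3.56. The control arrays read 3.76, 3.69 and 3.53. Decitabine alone overlapped control, the only treatment to do so for any of the 3 genes.

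The ENPP2 mean was 7.81 (SD 0.14, n = 3) with decitabine plus panobinostat and 3.66 (SD 0.12, n = 3) in control, a 17.7-fold difference. The control level lies under the array medians, so this fold and the others against control may understate the difference. It was 6.87-fold higher than control with decitabine plus valproic acid, 4.75-fold with panobinostat, 4.68-fold with valproic acid and 1.17-fold with decitabine. The log2 differences were 4.15, 2.78, 2.25, 2.23 and 0.23, with a standard error of 0.42 each. With the array that stood apart left out, the difference for decitabine plus valproic acid was 3.36. The single inhibitors overlapped each other, and both overlapped decitabine plus valproic acid, whose arrays spread over an SD of 1.06. Over decitabine alone, ENPP2 was 15.1-fold higher with panobinostat added, and 1 of 14884 genes had a larger difference in that comparison. ENPP2 was chosen on these levels, so this rank says nothing beyond the choice.

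GPR34, on probe set 17102792, followed decitabine. Decitabine plus panobinostat gave 9.44, 8.96 and 9.11, decitabine plus valproic acid 8.90, 8.22 and 8.04, and decitabine alone 8.65, 8.01 and 8.06. Panobinostat gave 6.09, 6.40 and 6.22, valproic acid 6.01, 5.70 and 5.69, and control 4.70, 4.92 and 3.96. The arrays formed 3 tiers that did not overlap: all 9 arrays with decitabine on top, the 6 with an inhibitor alone in the middle, and the 3 controls at the bottom.

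GPR34 averaged 9.17 (SD 0.24, n = 3) with decitabine plus panobinostat, 8.39 (SD 0.45) with decitabine plus valproic acid and 8.24 (SD 0.36) with decitabine, against 4.53 (SD 0.50) in control. These were 25.0-fold, 14.5-fold and 13.1-fold differences from control, or 4.64, 3.86 and 3.71 on the log2 scale with a standard error of 0.25. Panobinostat was 3.28-fold and valproic acid 2.41-fold above control (1.71 and 1.27 on the log2 scale). With decitabine, the GPR34 difference was number 4 from the top of 14884 genes, a rank that says nothing beyond the choice of GPR34 on these levels. Decitabine plus valproic acid overlapped decitabine alone, at a difference of 0.15, which is within the spread of the arrays. Without the array that stood apart, decitabine plus valproic acid differed from control by 3.61. Decitabine plus panobinostat exceeded decitabine alone by 0.93, with all 3 arrays higher and a gap of 0.31. Control replicate 3 was the lowest GPR34 reading, and without it the decitabine difference was 3.43.

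**Figure D1:**
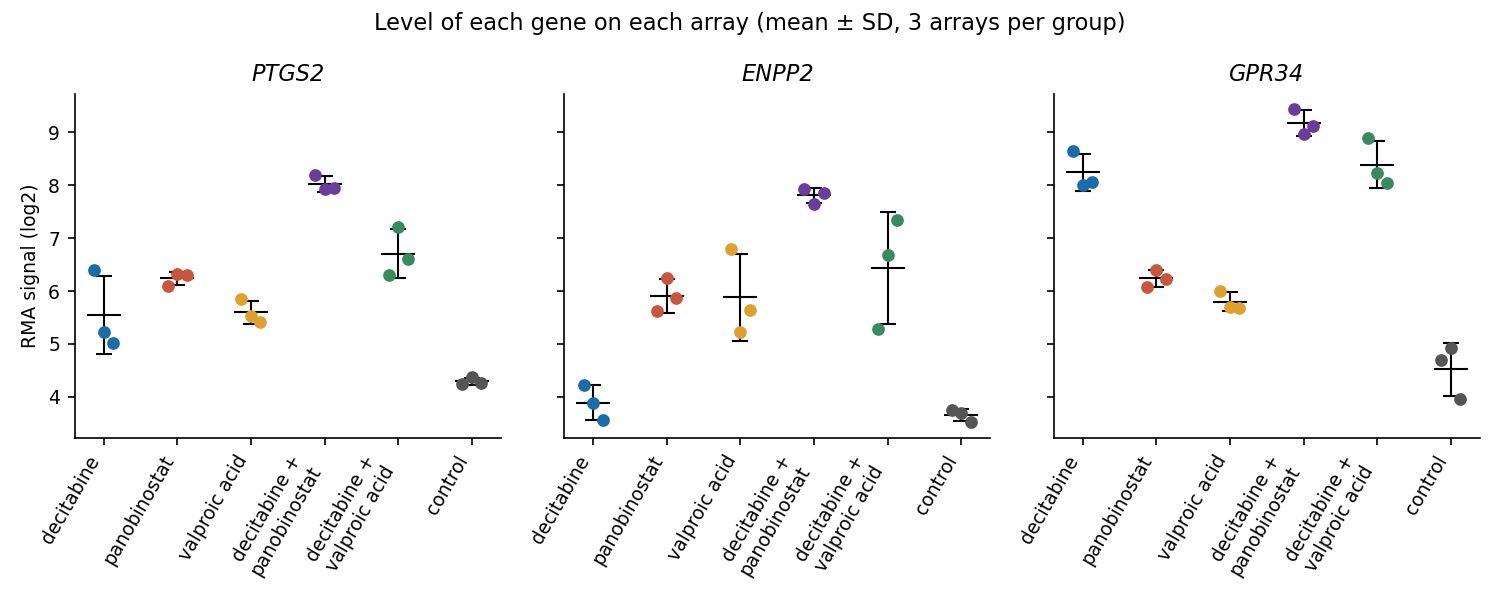
RMA signal (log2 scale, vertical axis) of PTGS2, ENPP2 and GPR34 on each of 18 arrays; points are arrays, and bars are the mean ± SD of 3 arrays. PTGS2 is above control in every treated group, ENPP2 with decitabine alone overlaps control, and GPR34 with decitabine alone lies between 8.01 and 8.65, above both inhibitors.

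Counted as arrays that do not overlap, 3 of 3 genes stood above control with decitabine plus panobinostat, where 16.9% of all genes did. The count was 3 of 3 with decitabine plus valproic acid (15.4% of all genes), 2 of 3 with decitabine (11.5%), 3 of 3 with panobinostat (11.6%) and 3 of 3 with valproic acid (13.1%). Adding panobinostat to decitabine put 3 of 3 higher (14.2% of all genes), and adding decitabine to panobinostat also 3 of 3 (12.5%). Adding valproic acid to decitabine put 1 of 3 higher, ENPP2 (11.2%), and adding decitabine to valproic acid 2 of 3, PTGS2 and GPR34 (8.9%). Between the combinations, the one with panobinostat was higher for 3 of 3 genes (6.97%). Panobinostat alone exceeded valproic acid alone for 2 of 3 (6.03%), at gaps of 0.25 for PTGS2 and 0.08 for GPR34, while ENPP2 differed by 0.02. The genes were chosen on these levels, so the counts say nothing beyond the choice. All comparisons with control also share the same 3 control arrays.

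The combinations were also set against the agents given singly. For ENPP2 the change with decitabine plus panobinostat was 4.15 on the log2 scale, against 2.48 for the sum of the single changes, an excess of 1.67 (SE 0.59). All 3 arrays of the combination were above the level that the sum gives, 6.14, and 0.175% of all genes had a larger excess. With panobinostat that share was 5.46% for PTGS2 and 98.2% for GPR34. With valproic acid it was 71.2% for PTGS2, 11.4% for ENPP2 and 99.6% for GPR34. The 3 genes were chosen on these levels, so the shares say nothing beyond the choice. ENPP2 was near the array medians in control and with decitabine, so a small decitabine effect there could go unseen and the sum may be too low. For PTGS2 the combination with panobinostat exceeded the sum by 0.53 (SE 0.39), with 3 of 3 arrays above it. GPR34 was below the sum in both combinations, by a difference of -0.78 (SE 0.36) with panobinostat and -1.12 (SE 0.36) with valproic acid, and no array of either reached the sum.

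With valproic acid the combination differed from the sum by -0.14 (SE 0.39) for PTGS2 and 0.32 (SE 0.59) for ENPP2, both within their standard error. Both values changed sign with an array left out: PTGS2 to 0.28 without decitabine replicate 1, and ENPP2 to -0.13 without decitabine plus valproic acid replicate 3 and -0.01 without valproic acid replicate 2. Without replicate 1 of that combination, the array that stood apart, they were 0.06 and 0.90, and the GPR34 value was -1.38. The PTGS2 excess with panobinostat ranged from 0.27 without decitabine replicate 3 to 0.96 without decitabine replicate 1. For GPR34 with panobinostat the difference from the sum was -0.50 without control replicate 3.

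The scale matters for GPR34, and for PTGS2 with valproic acid. On the linear signal scale (2 to the power of the mean), decitabine plus panobinostat gave 576 for GPR34 against 355 for the sum of the single increases over control, so the combination was above the sum there and below it on the log2 scale. With valproic acid the linear values of GPR34 were 334.7 for the combination and 334.7 for the sum. ENPP2 stayed above the sum on the linear scale with panobinostat, at 224 against 62.2, as did PTGS2, at 261 against 103. With valproic acid PTGS2 was above the sum on the linear scale, at 104 against 75.5. On the log2 scale it differed by -0.14 (SE 0.39). ENPP2 with valproic acid was above the sum on both scales, at 86.7 against 61.3 on the linear scale.

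**Figure D2:**
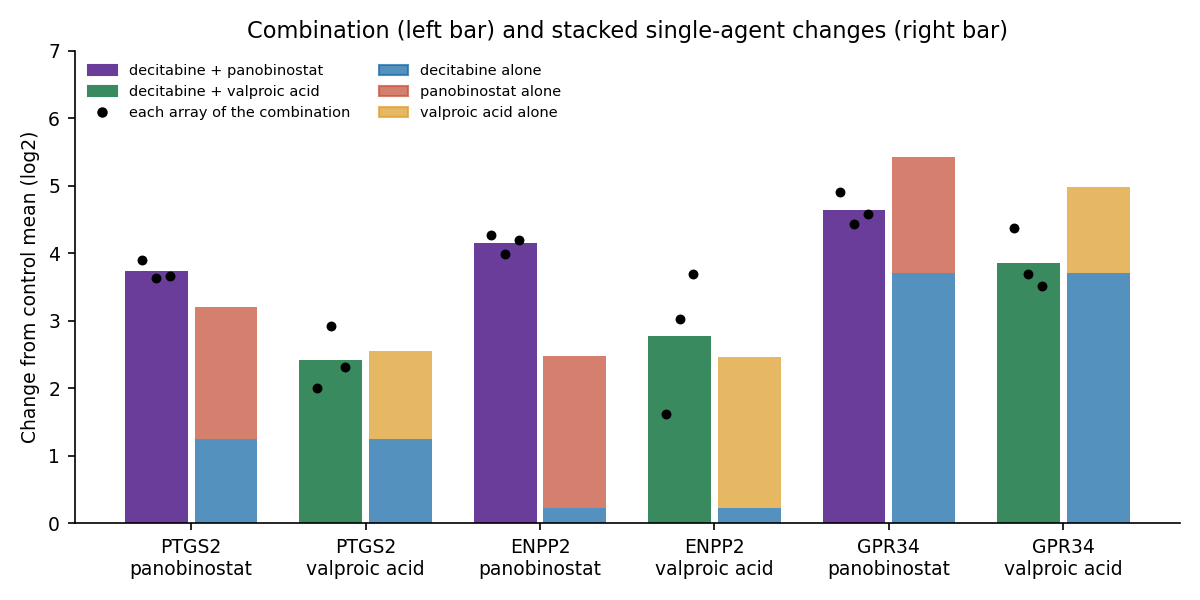
Change from the control mean (log2, vertical axis) for each gene and inhibitor: left bars are the combination with its 3 arrays as points, right bars stack the changes with decitabine alone and the inhibitor alone. The ENPP2 bar for decitabine plus panobinostat, at 4.15, stands above its stack of 2.48, and both GPR34 bars stand below their stacks.

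By the mean absolute difference between their 5 changes from control, PTGS2 and ENPP2 were 0.61 apart on the log2 scale, PTGS2 and GPR34 1.02, and ENPP2 and GPR34 1.31. Other protein-coding genes were nearer to each. For PTGS2 the nearest were TRAF1, an adaptor of tumor necrosis factor receptors (0.29), the complement component C3 (0.33), GLI3, a transcription factor of hedgehog signaling (0.34), HPSE, heparanase (0.37), and the kinase SGK1 (0.39). For ENPP2 they were REPS2 (0.46), the small GTPase RRAS (0.46), RGS9, a regulator of G protein signaling (0.48), SLFN5 (0.48) and the metalloreductase STEAP4 (0.49). The chemokine CCL1 was nearest to GPR34 (0.35), followed by perforin, PRF1 (0.49), the keratin KRT23 (0.51), the peroxiredoxin PRDX1 (0.54) and the RNA-binding protein IGF2BP1 (0.64). None of the 5 genes nearest to ENPP2 reached its change of 4.15 with decitabine plus panobinostat, the highest being RRAS at 3.63. CCL1 matched GPR34 with decitabine, at 3.74, but stood at 0.13 with valproic acid, where GPR34 was at 1.27.

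**Figure D3:**
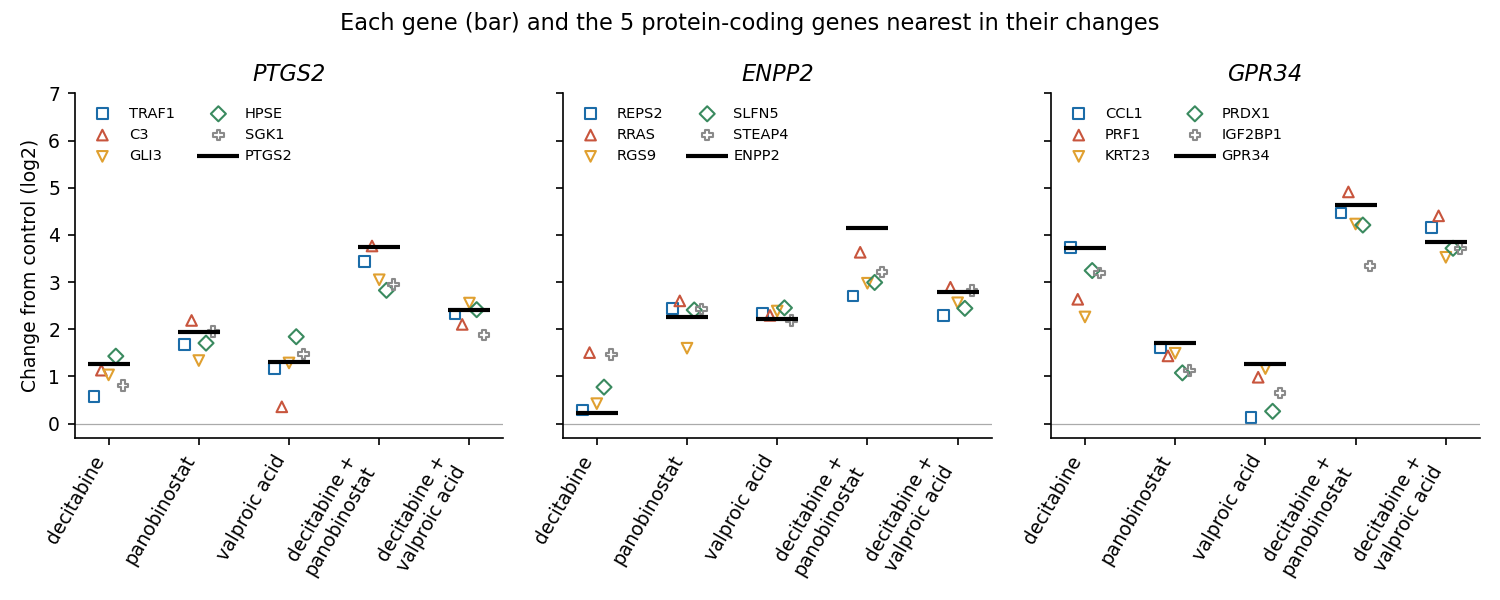
Changes from control (log2, vertical axis) under the 5 treatments for each gene (black bar) and the 5 protein-coding genes with the smallest mean absolute difference from it (symbols). For ENPP2 the bar at decitabine plus panobinostat, 4.15, lies above all 5 of its nearest genes, which says nothing beyond the choice of genes.

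The wider question is whether other genes of these lipid pathways changed, and 10 lists of such genes, without the 3 above, were read from limma's fit over all 14884 genes. Of 130 listed genes 85 had a named probe set. With a Benjamini-Hochberg adjusted p under 0.05, decitabine plus panobinostat raised 21 of them (24.7%, against 11.2% of all genes) and lowered 8 (9.41%, against 12% of all genes). For decitabine plus valproic acid 22 rose (25.9%, against 8.9% of all genes) and 5 fell (5.88%, against 8.06%). Decitabine alone raised 7 and lowered 2 (2.57% and 1.39% of all genes were called). Panobinostat raised 6 and lowered 3 (3.92% and 3.47% of all genes), and valproic acid raised 7 and lowered 1 (4.73% and 2.74%). The median change of the 85 genes was 0.13 and 0.15 with the combinations and between -0.03 and 0.04 with the single agents, while that of all genes was between -0.02 and 0.00. The lists were written from general knowledge with earlier results of these data known. Set against decitabine alone, adding panobinostat raised 12 list genes and lowered 4 (7.66% and 7.91% of all genes), and adding valproic acid raised 8 and lowered 2 (3.57% and 2.57%). Adding decitabine raised 12 and lowered 3 relative to panobinostat alone (5.42% and 4.13% of all genes), and raised 9 and lowered 2 relative to valproic acid alone (2.63% and 1.4%). The test of the combination against the sum of the single changes called 1 list gene higher and 1 lower with panobinostat (0.336% and 0.289% of all genes). With valproic acid limma called 0 of 85 (0.0134% and 0.047% of all genes), and 13 had an unadjusted p under 0.05. With panobinostat 20 of 85 did. The share of all genes at the unadjusted threshold was not counted, so nothing is read from either number. Of the calls against control, 18, 16, 4, 4 and 3 stood whichever array was left out, in the order of the treatments above.

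Among prostanoid enzymes, which act before and after PTGS2, 4 of 13 rose and 3 fell with each combination. Of all genes, 11.2% rose and 12% fell with decitabine plus panobinostat, and 8.9% and 8.06% with decitabine plus valproic acid. PTGS1, the constitutive cyclooxygenase and paralog of PTGS2, averaged 8.97 ± 0.13 with decitabine plus panobinostat and 8.64 ± 0.05 in control (SD, n = 3 each), a change of 0.33 (SE 0.14, adjusted p 0.105 from limma). Its call with decitabine plus valproic acid (0.44, adjusted p 0.0371) was lost under 7 alternatives, at up to 0.161 without decitabine plus valproic acid replicate 2 and from 0.0223 at the lowest. Without control replicates 1, 2 and 3 or replicate 3 of the combination, it was 0.0806, 0.107, 0.0734 and 0.0738. HPGD, the dehydrogenase that inactivates prostaglandins, rose by 0.89 with decitabine (SE 0.17, adjusted p 0.00621), by 1.23 with decitabine plus panobinostat, and by 1.11 when valproic acid was the partner. PTGR2, a reductase of prostaglandin breakdown, fell by 1.31 with decitabine (SE 0.16, adjusted p 8.07e-05), by 1.22 with decitabine plus panobinostat and by 1.24 with decitabine plus valproic acid. PTGR1, another reductase in lipid mediator breakdown, rose by 1.07 with decitabine plus valproic acid (adjusted p 0.00565), and PTGR3 fell by 0.82 with decitabine plus panobinostat (adjusted p 0.00373). PTGES, the inducible prostaglandin E synthase that takes the product of PTGS2, was called with decitabine plus panobinostat (0.62, adjusted p 0.0127). This was lost without control replicate 1 (0.0505), without replicate 2 of the combination (0.0756) and in a fit of the 6 arrays alone (0.0518), with 0.00354 as the lowest alternative.

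Prostanoid receptors rose in 4 of 7 cases with decitabine plus panobinostat (11.2% of all genes) and 3 of 7 with decitabine plus valproic acid (8.9%). None of them fell (12% and 8.06% of all genes). TBXA2R, the thromboxane receptor, stood at 5.70, 5.94 and 5.85 with decitabine against 3.46, 4.03 and 4.23 in control, with no overlap. It rose by 1.92 (SE 0.22, adjusted p 4.86e-05), by 1.63 with decitabine plus panobinostat and by 1.48 with decitabine plus valproic acid. With the inhibitors alone its changes were -0.24 and 0.07, neither of them called. PTGIR, the prostacyclin receptor, rose by 1.06 with decitabine plus panobinostat, and by 1.07 when valproic acid was the partner (SE 0.17 each, adjusted p 0.000199 and 0.000375). PTGER4, a receptor for prostaglandin E2, read 8.55, 8.62 and 8.52 with panobinostat against 7.50, 7.65 and 7.35 in control, a rise of 1.06 (SE 0.21, adjusted p 0.00513). With decitabine plus panobinostat PTGER4 rose by 1.22 (adjusted p 0.000446), while decitabine gave 0.52, valproic acid 0.66 and decitabine plus valproic acid 0.34, none of them called. Panobinostat added to decitabine was called for PTGER4 (0.70, adjusted p 0.0338; 0.00541 at the lowest). That was lost without decitabine replicates 2 (0.053) or 3 (0.159), without replicates 1 (0.0627), 2 (0.0731) or 3 (0.102) of the combination, and in a fit of those groups alone (0.136). PTGFR, the prostaglandin F receptor, was called with decitabine plus panobinostat (0.96, adjusted p 0.00847), but not without replicate 3 of the combination (0.0517; lowest alternative 0.00261). With valproic acid alone none of the 7 receptors was called by limma, and 1 had an unadjusted p under 0.05.

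The leukotriene branch uses the same arachidonic acid through 5-lipoxygenase. ALOX5, that enzyme, was low with 3.80, 3.72 and 3.88 in control, and read 5.27, 5.12 and 4.95 with decitabine plus panobinostat, a rise of 1.31 (SE 0.17, adjusted p 3.29e-05). With decitabine plus valproic acid it rose by 0.76 (adjusted p 0.00516), and with decitabine, panobinostat and valproic acid alone the values were 0.44, -0.01 and -0.18, none of them called. ALOX5AP, the protein that presents arachidonic acid to ALOX5, went the other way by combination: it rose by 0.58 with panobinostat (SE 0.11, adjusted p 0.00344) and fell by 0.47 with decitabine plus panobinostat (adjusted p 0.00404). LTA4H, which makes leukotriene B4, rose by 0.89 with decitabine plus panobinostat and by 0.79 with decitabine plus valproic acid (SE 0.17; adjusted p 0.0012 and 0.00476). FPR2, a receptor for lipoxin and formyl peptides, rose by 1.26 with decitabine plus panobinostat, by 1.00 with decitabine plus valproic acid and by 1.02 with valproic acid (SE 0.18; adjusted p 7.06e-05, 0.00101 and 0.00258). OXER1, a receptor for oxidized eicosanoids, fell by 1.10 with decitabine plus panobinostat (adjusted p 0.000713). In all, 3 of 13 genes of this list rose and 2 fell with each combination. Of all genes, 11.2% rose and 12% fell with decitabine plus panobinostat, and 8.9% and 8.06% with decitabine plus valproic acid.

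Near ENPP2, none of the 5 measured relatives of its family (ENPP1, ENPP3, ENPP4, ENPP5 and ENPP6) was called by limma in any treatment against control. At an unadjusted p under 0.05 there was 1 with each combination and none with a single agent. Their levels were low, with means over all arrays of 3.35 to 3.83. Among the 10 LPA receptors, phosphatases and related enzymes, 3 rose and 1 fell with decitabine plus panobinostat (11.2% and 12% of all genes). With decitabine plus valproic acid 2 rose (8.9% of all genes). LPAR1, a receptor for the product of ENPP2, read 6.02, 5.29 and 5.70 with decitabine against 3.80, 4.07 and 3.67 in control. It rose by 1.83 (SE 0.24, adjusted p 0.000196) with decitabine, by 1.94 with decitabine plus panobinostat and by 1.87 with decitabine plus valproic acid (adjusted p 2.18e-05 and 6.06e-05). With panobinostat alone LPAR1 was called at 0.86 (adjusted p 0.037), which was lost without control replicates 1 (0.0988) or 3 (0.14) or panobinostat replicates 2 (0.162) or 3 (0.0767), and was 0.0193 at the lowest. These values are from probe set 17097132. A second LPAR1 probe set, 17088063, did not follow it, with 3.47 with decitabine and 3.39 in control, so the probe sets of this gene disagree.

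Other LPA genes gave weaker evidence. LPAR6 was called with decitabine plus panobinostat (1.04, adjusted p 0.0284), but its 3 arrays ran from 3.87 to 5.56 and the call was lost without control replicate 2 (0.0546), control replicate 3 (0.102), or replicates 1 (0.0784) or 3 (0.16) of the combination. The lowest alternative for LPAR6 was 0.00126. PLPP3, a phosphatase that breaks down extracellular LPA, was called with decitabine plus panobinostat (1.44, adjusted p 0.00885) and not without replicate 1 of that group (0.0531; lowest alternative 0.00403). AGK, which makes LPA inside the cell, changed by -0.50 (adjusted p 0.0206), a call lost without control replicate 2 (0.0568), control replicate 3 (0.0753), or replicates 1 (0.0511) or 3 (0.0862) of the combination, and from 0.0147 at the lowest. LPAR3, LPAR4, PLPP1 and PLPP2 were not called in any treatment against control. The receptors LPAR2 and LPAR5 were not analysed here, nor were PLA2G4A, PTGER2 and P2RY10.

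GPR34 lies within the gene CASK, which is listed on the same chromosome, so both were compared. The main CASK probe set, 17110237, gave 8.90, 8.62 and 8.84 with decitabine plus panobinostat against 7.86, 7.76 and 7.82 in control, and 7.83, 7.44 and 7.36 with decitabine alone. CASK thus overlapped control with decitabine, where GPR34 was 13.1-fold higher. The same CASK probe set read 8.29, 8.28 and 8.37 with panobinostat alone and 8.80, 8.67 and 8.54 with valproic acid alone. With decitabine plus valproic acid it read 8.10, 8.62 and 8.56. In these groups CASK and GPR34 were both above every control array. A second CASK probe set, 17102789, averaged between 3.66 and 3.79 in all 6 groups. GPR82, the neighbouring receptor gene, averaged 3.75 with decitabine, 3.36 to 3.53 with the other treatments and 3.39 in control, and was not called in any treatment against control.

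GPR174, a second lysophosphatidylserine receptor, was also higher after treatment, but with replicates that split. It read 6.25, 6.48 and 6.66 with panobinostat against 4.21, 4.10 and 3.84 in control, a change of 2.42 (SE 0.59, adjusted p 0.0187). With decitabine plus panobinostat it read 5.82, 5.82 and 7.64, and rose by 2.38 (adjusted p 0.00738). With decitabine the arrays stood at 6.63, 4.70 and 4.78, and with valproic acid at 6.40, 4.72 and 4.69, and neither was called. The panobinostat call was lost without control replicate 2 (0.0533), control replicate 3 (0.0734), panobinostat replicate 2 (0.0538) or panobinostat replicate 3 (0.0669), with 0.000261 as the lowest alternative. Of the 6 measured receptors of this list, 2 rose with decitabine plus panobinostat (11.2% of all genes), while 1 did so with decitabine plus valproic acid (8.9%). That 1 was GPR174 (2.24, adjusted p 0.0152), lost without control replicate 3 (0.0536) or replicate 3 of the combination (0.0766), with 0.00489 at the lowest. The other with decitabine plus panobinostat was GPR132, a receptor for lysolipids and oxidized fatty acids (0.79, adjusted p 0.00961), not called without decitabine plus panobinostat replicate 2 (0.0564; lowest alternative 0.00253). GPR183, an oxysterol receptor, was called with decitabine alone (0.68, adjusted p 0.0131), but not without control replicates 2 (0.0533) or 3 (0.0641) or decitabine replicate 2 (0.059), and from 0.00301 at the lowest.

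**Figure D4:**
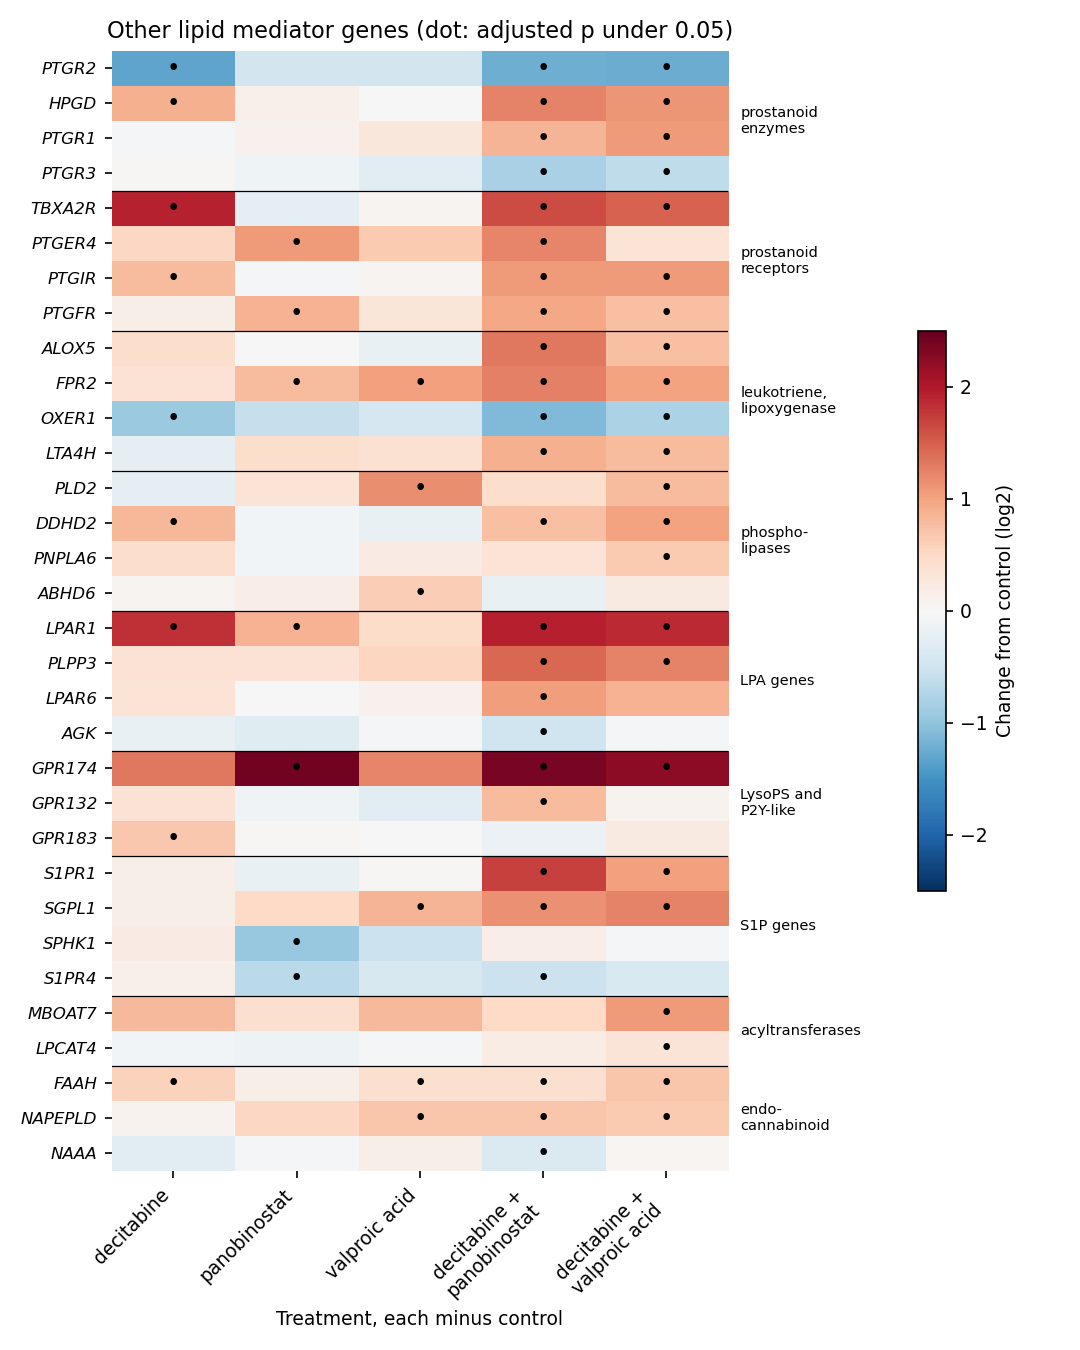
Changes from control (log2, colour) of the named genes of 9 lists under the 5 treatments; a dot marks an adjusted p under 0.05 in limma. TBXA2R and LPAR1 carry dots with decitabine and both combinations (LPAR1 also with panobinostat), whereas S1PR1, ALOX5 and LTA4H carry them with the combinations alone.

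Among genes of sphingosine 1-phosphate, a lysolipid that acts on receptors of the same broad family as LPA, the receptor S1PR1 read 5.04, 4.77 and 5.10 with decitabine plus panobinostat. In control it read 3.07, 3.29 and 3.42, and the rise was 1.71 (SE 0.13, adjusted p 7.75e-08). It rose by 1.02 with decitabine plus valproic acid (adjusted p 4.22e-05), while decitabine, panobinostat and valproic acid alone gave 0.15, -0.18 and 0.03, none of them called. SGPL1, the lyase that degrades sphingosine 1-phosphate, rose by 1.14 with decitabine plus panobinostat and by 1.24 with decitabine plus valproic acid (SE 0.22; adjusted p 0.00125 and 0.0011). SPHK1, a kinase that makes it, fell by 0.95 with panobinostat alone (adjusted p 0.00387). S1PR4 was called with panobinostat (-0.66, adjusted p 0.0163), but not without control replicate 3 (0.0824) or panobinostat replicate 3 (0.0881; lowest alternative 0.0143). In all, 2 of 9 genes of this list rose and 1 fell with decitabine plus panobinostat (11.2% and 12% of all genes). With decitabine plus valproic acid 2 rose (8.9% of all genes).

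Of 8 measured phospholipases, 1 rose with decitabine plus panobinostat (12.5%, against 11.2% of all genes). It was DDHD2, at 0.75 (adjusted p 0.0199). That call was lost without control replicates 1 (0.0821) or 3 (0.0801), or replicate 3 of the combination (0.0821), with 0.00927 at the lowest. With decitabine plus valproic acid 3 rose (37.5%, against 8.9% of all genes). They were DDHD2 by 1.01 (SE 0.22, adjusted p 0.00439), PNPLA6 by 0.65 (adjusted p 0.00644), and PLD2, a phospholipase D, at 0.79 (adjusted p 0.0397). The PLD2 call was lost under 7 alternatives, with 0.0598 without control replicate 1, 0.132 without control replicate 2, 0.0839 without control replicate 3, and 0.201 and 0.125 without replicates 2 and 3 of the combination (lowest alternative 0.00179). With valproic acid alone PLD2 rose by 1.16 (adjusted p 0.01) and ABHD6, a hydrolase of the endocannabinoid 2-arachidonoylglycerol, by 0.61 (adjusted p 0.00405). With panobinostat no phospholipase was called by limma or had an unadjusted p under 0.05. FAAH, which degrades the endocannabinoid anandamide, rose by 0.69 with decitabine plus valproic acid (adjusted p 0.000766). NAPEPLD, which makes anandamide and related amides, rose by 0.69 with decitabine plus panobinostat (adjusted p 0.00677). NAAA was called at -0.35 with decitabine plus panobinostat (adjusted p 0.0428), which 8 alternatives lost, at 0.0696, 0.0525 and 0.166 without control replicates 1, 2 and 3, and 0.162 and 0.147 without replicates 1 and 2 of the combination (lowest 0.00994). Of 7 lysolipid acyltransferase and platelet-activating factor genes, 2 were called higher with decitabine plus valproic acid (8.9% of all genes). MBOAT7, which acylates lysophosphatidylinositol, was at 1.07 (adjusted p 0.0133), lost without control replicate 1 (0.0542) or replicate 3 of the combination (0.0601; lowest alternative 0.00502). LPCAT4 was at 0.32 (adjusted p 0.0297), lost without control replicates 1 (0.0964) and 2 (0.0866) or replicates 2 (0.0515) and 3 (0.119) of the combination (lowest alternative 0.0117).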

How the data were processed

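RNA of U937 cells, labelled with biotin, was measured on Affymetrix arrays. The deposited log2 values were made by the authors with RMA, per the submitters' processing notes; its version and a genome build are not given in the sources used here. Raw arrays were not used. Probe sets were named with the platform's annotation, checked against RefSeq by gene identifier (0 symbols needed an update): 1 symbol was found for 16098, several for 0 and none for 32128. Where a gene had several probe sets, the one with the highest mean stood for it, which left 14884 genes. Dim genes were kept, and signals near background understate changes.

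One mean per group was fitted with limma 3.58.1 in R 4.3.3 to all 18 arrays (12 residual degrees of freedom, empirical Bayes), with Benjamini-Hochberg adjustment over all genes in each comparison and 0.05 as the threshold. The code was tested on simulated data. For interactions, the summed single changes were subtracted from the combination's change. The 3 genes, the 10 lists and the markers were chosen with earlier results of these data known. Genes named are the 3, 13 measured of 18 fixed partners, up to 4 called genes of a list with the largest change, list genes called in an interaction, and the 5 nearest protein-coding genes of each. CASK, which is outside this rule, was added for its position. Promoter sequence is from RefSeq, GRCh38.p14, whose table held PTGS2. Replicate numbers were not read as pairing arrays: the correlation of their deviations from group means was over 0.1 in 1 of 45 pairs, with a median of 0.02.

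Alternatives were a fit of the compared groups alone, the replicate number as a block, dim genes left out, a further quantile normalization, median subtraction, a variance trend, every named probe set, the median of the arrays, and each array left out.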

Additional observations from a re-analysis of the deposited data

Results flagged for a closer look

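2 genes of the lists had an interaction that passed limma's test, so that the effect of panobinostat with decitabine differed from its effect without. For S1PR1 the combination exceeded the sum of the single changes by 1.75 on the log2 scale (SE 0.18, adjusted p 0.000257; 8.05e-05 to 0.00174 over the alternatives that held it). S1PR1 is dim, with a mean of 3.71 over all arrays, and is not among the genes tested when dim genes are left out. Changes under its level in control or with the single agents could not be seen. All 3 arrays of the combination, at 5.04, 4.77 and 5.10, were above every array of decitabine alone, of panobinostat alone and of control. For ALOX5AP the combination was below the sum, with an interaction of -0.82 (SE 0.15, adjusted p 0.0198). Its arrays read 10.90, 11.11 and 10.71 with decitabine plus panobinostat, 11.08, 11.09 and 11.28 with decitabine, 12.04, 11.95 and 11.89 with panobinostat, and 11.45, 11.31 and 11.38 in control. The ALOX5AP call was lost without control replicate 2 (adjusted p 0.0641), control replicate 3 (0.0523), decitabine replicate 3 (0.0587), decitabine plus panobinostat replicate 3 (0.0552) or panobinostat replicate 1 (0.0577), and 0.00168 was the lowest alternative. Over all genes, the interaction with panobinostat called 0.336% higher and 0.289% lower. The cause of either result was not tested.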

How the results depend on the processing

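The differences of PTGS2, ENPP2 and GPR34 from control kept their direction under every alternative run. The genes were chosen on these levels, so a kept direction says nothing beyond the choice. For ENPP2 with decitabine, which overlapped control, the difference was 0.23 (SE 0.42), and 0.07 without decitabine replicate 1. Another probe set was not run, since each gene has 1. With the median of the arrays the GPR34 difference with decitabine was 3.36, and with 1 array left out the PTGS2 difference with decitabine ran from 0.83 to 1.52. The PTGS2 interaction ranged from 0.27 to 0.96 with panobinostat and from -0.41 to 0.28 with valproic acid. In a fit of the compared groups alone, the list genes called were 5 rather than 9 with decitabine, 4 rather than 8 with valproic acid, and 2 rather than 10 for decitabine plus valproic acid against decitabine; such fits have fewer arrays. Without dim genes the interaction with panobinostat called 1 list gene rather than 2, as S1PR1 was then not tested. With an array left out the counts ran from 5 to 9 with panobinostat (5 without control replicate 3 or panobinostat replicate 3), from 3 to 7 with valproic acid (3 without valproic acid replicate 1, 5 without control replicate 3 or valproic acid replicate 3), from 3 to 12 for decitabine plus valproic acid against decitabine (3 without decitabine replicate 3 or replicate 2 of the combination, 4 without its replicate 3, 6 without decitabine replicate 1), and from 1 to 3 for the interaction with panobinostat. The replicate block gave 9, 11, 8, 31 and 26 calls for decitabine, panobinostat, valproic acid and the combinations with panobinostat and valproic acid, against 9, 9, 8, 29 and 27. The calls of FAAH with valproic acid (0.0551) and of PTGS1 with decitabine plus valproic acid (0.0545) were lost under the block, and 8 of 18 arrays lay closest to their own number. The interaction with valproic acid called no list gene in limma (13 of 85 at an unadjusted p under 0.05, with no share of all genes counted). The cause of these changes was not tested, and signal near background limits the dim genes.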

Other observations

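Within groups, the 3 genes were often highest on the same array. PTGS2, ENPP2 and GPR34 all had their highest reading on replicate 1 with decitabine, valproic acid and decitabine plus panobinostat, and on replicate 2 with panobinostat. Over all genes the share highest on that array was 34.9%, 35.5%, 33.5% and 35.7%. In decitabine plus valproic acid each of the 3 genes peaked on another array, and in control PTGS2 and GPR34 peaked on replicate 2 and ENPP2 on replicate 1. This was noticed after the values were seen and was not tested. The lysophosphatidylserine receptor gene GPR174 had its highest reading on replicate 1 too with decitabine (6.63) and valproic acid (6.40), but on replicate 3 with decitabine plus panobinostat (7.64) and panobinostat (6.66).

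HDC, the histamine-making enzyme and a mast cell marker, read 7.12, 6.30 and 6.40 with decitabine against 3.46, 3.16 and 3.29 in control. It read 6.91, 5.20 and 5.09 with decitabine plus valproic acid, and 6.42, 5.41 and 5.36 with decitabine plus panobinostat. With panobinostat alone and valproic acid alone HDC averaged 3.56 and 3.51. CD2, a T cell adhesion receptor, read 5.88, 6.13 and 6.02 with decitabine plus valproic acid and 5.96, 5.95 and 5.63 with decitabine plus panobinostat. In control CD2 read 4.16, 3.99 and 3.75. Of the other measured T cell markers, CD5 averaged 5.06 with decitabine plus valproic acid and 4.91 with decitabine plus panobinostat, against 4.15 in control. CD8A averaged 4.98 and 4.62 against 4.59, so it did not follow CD2 with decitabine plus panobinostat. The other measured mast cell markers did not all follow HDC. KIT averaged 6.55 with decitabine and 5.84 with decitabine plus valproic acid against 6.06 in control, TPSAB1 3.77 and 3.71 against 3.49, and CPA3 4.19 and 4.59 against 3.89. With decitabine plus panobinostat KIT averaged 5.43, TPSAB1 3.51 and CPA3 4.82. HDC and CD2 were singled out after their values were seen and were not tested here.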
